A study of Homo sapiens with 2 samples.

Results

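Hotspots inside very long genes were compared between Saos-2 and U2OS, both established human cell lines derived from osteosarcoma. A hotspot is a stretch of chromatin with many cuts by DNase I, an enzyme that cuts DNA where it is not wrapped on nucleosomes. The hotspots described here lay on chromosomes 1 to 22, wholly inside a protein-coding gene of at least 500 kb and more than 10 kb from both of its ends. By this rule 2633 of the 50120 autosomal hotspots of Saos-2 (5.25%) and 3907 of the 61903 of U2OS (6.31%) were members, out of 51556 and 63388 hotspots on all chromosomes. They fell in 303 long genes, of 19126 autosomal protein-coding genes, whose interiors covered 244.7 Mb. The cells carried no treatment that the labels name. Nuclei of each line were digested with DNase I for 3 min at 37 °C, and the fragments were amplified by 8 to 10 cycles of PCR. There was 1 library per line, so no difference below has a replicate check, no p-value is given, and every comparison is between these libraries. A deeper library yields more hotspots, and the read depth cannot be read from the lists. Of marker genes with a hotspot within 1 kb of an end, 4 of 6 mesenchymal and osteoblast genes had one in Saos-2 and 5 of 6 in U2OS, the epithelial genes EPCAM and CDH1 had none in either line, 1 of 3 blood genes (CD3E) had one in both, and 1 and 2 of 3 neuronal genes had one.

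Very long genes are made almost entirely of introns. Many of them encode cell adhesion molecules, ion channels and scaffolds of the nervous system, and several span common fragile sites, regions that break when replication is slowed. Their introns are known to hold enhancers, alternative promoters, binding sites of architectural proteins and whole smaller genes, all of which can appear as DNase I hotspots. The gene table used holds spans without exons, so hotspots are described as inside a gene and not as exonic or intronic.

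Some hotspots inside long genes lay at transcription starts, and the sequences before 6 such starts are shown because the lines differed or were alike there in a way that recurs below. Each is the 250 bases before the start, 5′ to 3′ on the strand of the gene, from RefSeq on GRCh38.p14, the primary assembly of hg38. The motifs searched on both strands were the GC box with the letters GGGCGG, the TATA box with the letters TATAAA, the AP-1 motif with the letters TGANTCA, the ETS motif with the letters CCGGAA, and the direct repeat bound by retinoic acid receptors with the letters GTTCANNNNNNGTTCA, and none of their matches overlapped another in these 6 sequences. Capitals mark their matches, and a sequence without capitals holds none of these letters in this window. The first 2 lines belong to RARB, a gene for a retinoic acid receptor, at chr3:25428013-25428262 (plus strand, start covered in Saos-2 alone) and chr3:25458060-25458309 (plus strand, start covered in U2OS alone). They are followed by an inner start of the transcription factor gene CAMTA1 at chr1:7704486-7704735 (plus strand, covered in both lines) and an inner start of the nuclear receptor gene ESRRG at chr1:217089619-217089868 (minus strand, covered in U2OS alone). The last 2 belong to smaller genes nested in long ones, ATP6V1D at chr14:67359805-67360054 (minus strand) inside GPHN, and FLRT3 at chr20:14337613-14337862 (minus strand) inside MACROD2, each covered in both lines.
RARB, Saos-2 only: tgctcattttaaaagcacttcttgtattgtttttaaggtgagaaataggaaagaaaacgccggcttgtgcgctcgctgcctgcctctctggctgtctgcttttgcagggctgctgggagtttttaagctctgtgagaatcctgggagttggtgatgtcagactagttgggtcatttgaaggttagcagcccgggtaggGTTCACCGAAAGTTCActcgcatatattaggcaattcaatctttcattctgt
RARB, U2OS only: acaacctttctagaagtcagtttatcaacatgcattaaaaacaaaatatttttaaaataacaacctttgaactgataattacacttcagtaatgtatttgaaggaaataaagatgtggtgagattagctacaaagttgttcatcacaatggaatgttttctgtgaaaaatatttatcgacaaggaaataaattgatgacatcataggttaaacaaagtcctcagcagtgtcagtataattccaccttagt
CAMTA1, both lines: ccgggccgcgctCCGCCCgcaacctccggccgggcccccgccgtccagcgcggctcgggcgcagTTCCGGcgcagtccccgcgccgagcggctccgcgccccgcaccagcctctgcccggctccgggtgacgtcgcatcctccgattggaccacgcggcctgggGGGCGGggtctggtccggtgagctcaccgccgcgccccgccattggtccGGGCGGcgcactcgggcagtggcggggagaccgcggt
ESRRG, U2OS only: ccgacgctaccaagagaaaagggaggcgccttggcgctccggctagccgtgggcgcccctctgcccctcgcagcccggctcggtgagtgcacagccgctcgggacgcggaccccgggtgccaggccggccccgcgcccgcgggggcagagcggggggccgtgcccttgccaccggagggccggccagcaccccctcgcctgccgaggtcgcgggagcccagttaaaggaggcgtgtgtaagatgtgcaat
ATP6V1D, both lines: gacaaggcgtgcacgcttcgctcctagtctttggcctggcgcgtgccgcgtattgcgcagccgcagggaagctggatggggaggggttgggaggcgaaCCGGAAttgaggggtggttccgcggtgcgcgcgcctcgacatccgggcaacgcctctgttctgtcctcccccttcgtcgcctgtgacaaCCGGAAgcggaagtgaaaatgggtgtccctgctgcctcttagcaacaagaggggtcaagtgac
FLRT3, both lines: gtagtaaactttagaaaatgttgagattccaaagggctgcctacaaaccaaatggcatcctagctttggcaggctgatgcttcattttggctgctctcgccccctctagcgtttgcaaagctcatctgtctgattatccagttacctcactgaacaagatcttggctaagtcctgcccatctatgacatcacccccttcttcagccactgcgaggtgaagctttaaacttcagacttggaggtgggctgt

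The RARB sequence covered in Saos-2 held the retinoic acid direct repeat 52 bases before the start, and the CAMTA1 sequence held 3 GC boxes and 1 ETS match. The ATP6V1D sequence held 2 ETS matches. Over the 33725 start windows of 300 bases on chromosomes 1 to 22 (250 before and 50 after a start), the GC box letters occurred in 45.0%, the TATA box in 11.6%, AP-1 in 7.67%, ETS in 17.3% and the retinoic acid repeat in 0.0563%, or 19 windows. A match is a description of letters and not a binding site.

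Long genes held fewer hotspots per length of DNA than shorter genes in both lines, and the shortfall was larger in Saos-2. Saos-2 had 18.1 hotspots per Mb inside genes of 200 to 500 kb (exact Poisson 95% interval 17.6 to 18.6), 12.5 (11.9 to 13.1) inside the 237 genes of 500 to 1000 kb and 7.78 (7.21 to 8.37) inside the 66 genes of at least 1000 kb. U2OS had 20.3 (19.8 to 20.8), 17.5 (16.9 to 18.2) and 13.3 (12.6 to 14.1) per Mb in the same classes. The lines were thus close in genes under 500 kb, where U2OS had 1.12 times the density of Saos-2 between 200 and 500 kb, and 1.71 times in the genes of at least 1000 kb. Over all long genes the densities were 10.8 per Mb in Saos-2 (10.4 to 11.2) and 16.0 in U2OS (15.5 to 16.5), against 17.4 and 21.5 over the whole autosomes. They were near the density more than 10 kb outside every protein-coding gene, which was 11.5 per Mb in Saos-2 (11.3 to 11.6) and 15.7 in U2OS (15.5 to 15.9). These intervals, like all those below, cover the error of counting alone and treat neighbouring hotspots as independent.

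**Figure D1:**
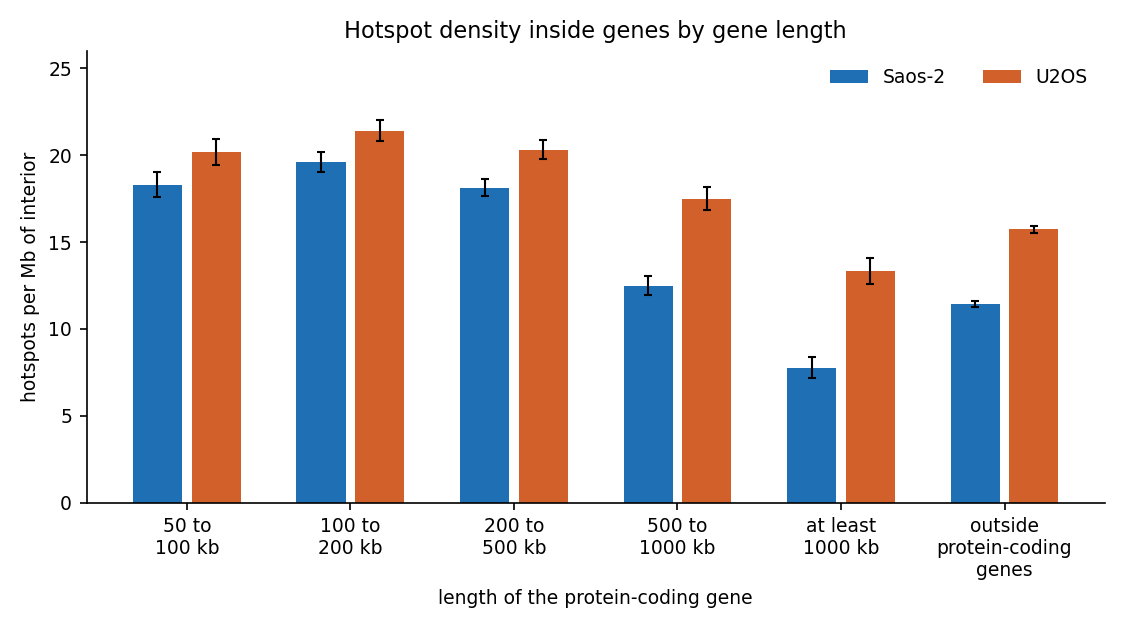
Hotspots per Mb of gene interior (vertical axis) for protein-coding genes by length class and for DNA more than 10 kb outside them, with Saos-2 and U2OS side by side and exact Poisson 95% intervals as error bars. The lines lie close together up to 500 kb and apart above it, at 7.78 per Mb in Saos-2 and 13.3 in U2OS in genes of at least 1000 kb.

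Hotspots inside long genes were also shared less between the lines than other hotspots. A Saos-2 hotspot was overlapped by at least 1 bp by a U2OS hotspot in 1376 of 2633 cases (52.3%, Wilson 95% interval 50.4 to 54.2), against 58.7% (58.2 to 59.1) of the other autosomal hotspots and 58.3% of all of them. A U2OS hotspot was overlapped in 1365 of 3907 cases (34.9%, 33.5 to 36.4), against 47.6% (47.2 to 48.0) of the others and 46.8% of all. The gap was thus wider in the U2OS list, where 2542 hotspots inside long genes had no partner in Saos-2. The overlapped counts, 1376 and 1365, were nearly equal, so the U2OS share follows from the Saos-2 share and the numbers of hotspots. The wider gap in U2OS is thus not a result separate from the lower Saos-2 density inside long genes. Inside genes of 100 to 500 kb, 50.3% of Saos-2 hotspots (49.3 to 51.3) and 45.3% of U2OS hotspots (44.3 to 46.2) were overlapped. More than 10 kb outside every protein-coding gene the shares were 53.1% (52.3 to 53.8) and 38.5% (37.9 to 39.1). Against these sets the share inside long genes was lower in U2OS but not clearly lower in Saos-2. The share went up with the authors' −log10 significance of a hotspot within each list. In the highest 20% of the U2OS list 64.7% of hotspots inside long genes were overlapped against 78.9% of the others, and in the lowest 20% 17.2% against 24.7%. In Saos-2 the same shares were 72.8% (68.5 to 76.7) against 83.2% (82.4 to 83.9) in the highest 20% and 33.5% (29.8 to 37.4) against 38.4% (37.4 to 39.4) in the lowest. In the 3 classes between, the Saos-2 shares were 44.3% against 46.5%, 52.9% against 56.7% and 63.9% against 68.1%, with intervals that overlapped. At like rank the Saos-2 share was thus lower inside long genes in every class. The intervals stood apart in the highest 20% and only touched in the lowest. Overlap of intervals is not a test of a difference.

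The hotspots themselves were slightly narrower and less significant than elsewhere. Median widths were 220 bp (Saos-2) and 238 bp (U2OS), against 240 and 249 bp for the other autosomal hotspots. Their median −log10 value was 3.79 in Saos-2 and 4.45 in U2OS, against 4.08 and 4.64. More than 10 kb outside every protein-coding gene it was 3.91 and 4.37, so in U2OS the hotspots inside long genes were not the less significant there. None reached the cap of 100 that the lists hold, and the highest values were 45.1 and 62.5. Unshared hotspots were weaker than shared ones, with a median −log10 value of 3.06 against 4.78 in Saos-2 and 3.65 against 7.14 in U2OS. Over all autosomal hotspots these medians were 3.02 against 5.31 and 3.41 against 7.25, so this contrast is not particular to long genes. Over the 1302 hotspots paired between the lines inside long genes, U2OS had the higher value in 65.7%. No such share over all paired autosomal hotspots is set beside it, so it is not read as a trait of long genes. Spearman's rho between the paired values was 0.322, given as a description, since the points share the depth of each library.

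Counted gene by gene, U2OS hotspots were spread over nearly every long gene, while Saos-2 hotspots were few or missing in many. A long gene held a median of 6 hotspots in Saos-2 (range 0 to 41) and 11 in U2OS (range 0 to 44). No hotspot was found inside 22 genes in Saos-2 (7.26%) and inside 1 gene in U2OS, and no long gene was empty in both. There were 87 genes with 3 or fewer hotspots in Saos-2 (28.7%), against 24 for U2OS (7.92%). Saos-2 hotspots were thus gathered in fewer genes: the 76 genes with the most held 56.5% of them, against 47.5% for the top 76 in U2OS. U2OS had more hotspots than Saos-2 in 216 genes (71.3%), fewer in 72 (23.8%) and the same number in 15. Genes dense in hotspots in either line tended to be dense in the other, with a Spearman's rho of 0.667 between hotspots per Mb over the 303 genes, again as a description. The span of a long gene can also hold other genes, and 37 of the 303 held at least 1 whole protein-coding gene, with GPHN holding 11, LRRC37A2 6 and RANBP2 5. Spans were taken as the gene table gives them, and for such genes they may be wider than the main transcript.

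**Figure D2:**
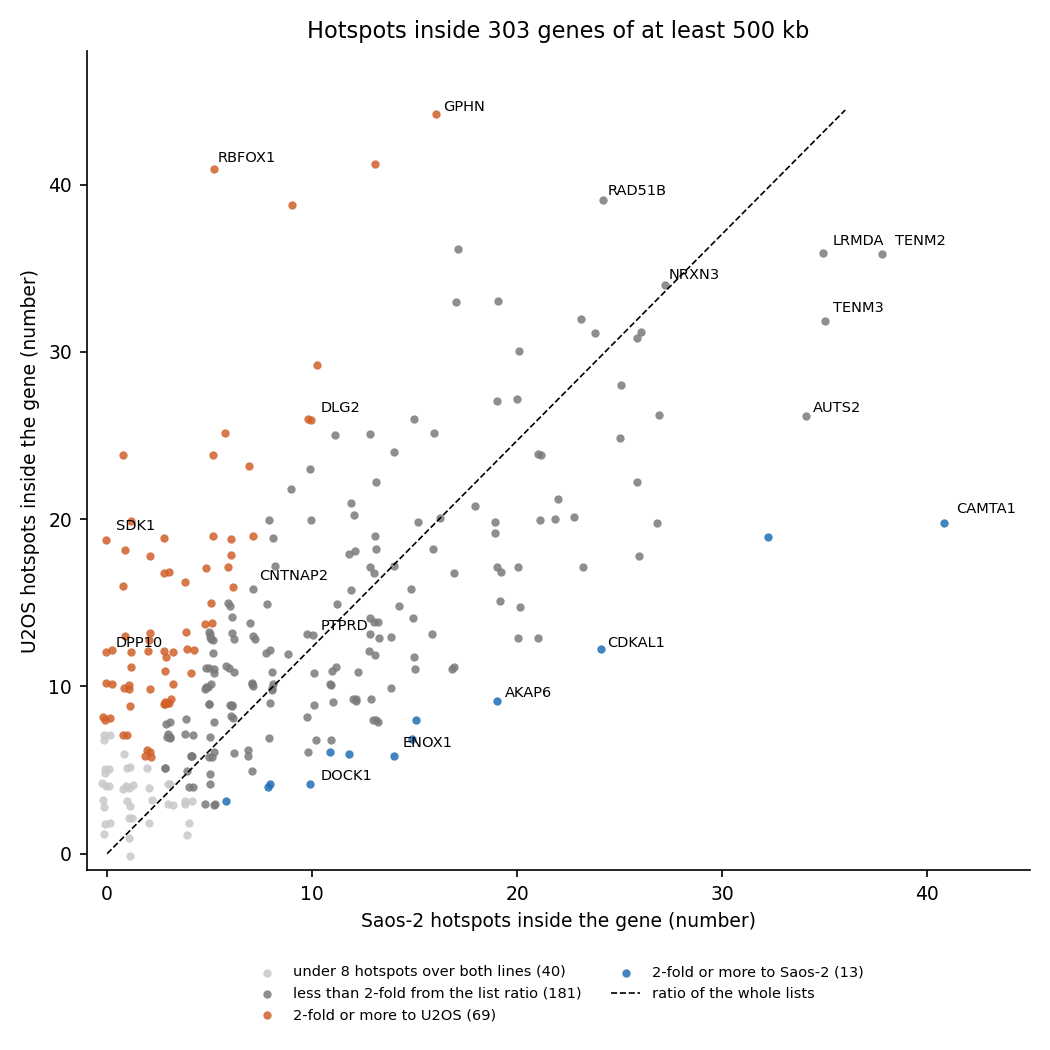
Number of Saos-2 hotspots (horizontal axis) and U2OS hotspots (vertical axis) inside each of the 303 long genes, 1 point per gene moved at random by at most 0.25 hotspot so that points can be told apart, and coloured by whether the ratio differed at least 2-fold from that of the whole lists. Most points lie on the U2OS side, and a column of 22 genes stands at 0 in Saos-2, with SDK1 highest at 19 in U2OS.

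To compare genes fairly, the log2 ratio of the hotspot counts (U2OS over Saos-2, each with 0.5 added) was centred on the log2 ratio of the autosomal lists, 0.30. A gene with at least 8 hotspots over both lines was called different at a centred log2 ratio of 1 or more in size. Of the 263 long genes with at least 8 hotspots, 69 were higher in U2OS (26.2%), against 12.3% of all 1354 protein-coding genes with at least 8 interior hotspots. Those higher in Saos-2 numbered 13 (4.94%), against 12.9% of all. In the top 50% of each list by significance, 24.1% of long genes were higher in U2OS, against 14.5% of all genes, and 10.6% were higher in Saos-2, against 12.3%, so the shortfall towards Saos-2 was small there. In genes under 500 kb the balance lay the other way, with 8.89% higher in U2OS and 14.8% higher in Saos-2. The median centred log2 ratio was 0.25 over the long genes and −0.21 over all 1354. Counting error alone can carry a gene with few hotspots past this limit. The exact (Clopper-Pearson) 95% interval of the U2OS share of hotspots lay wholly above the share in the lists, 55.3%, in 36 of the 69 genes, and wholly below it in 6 of the 13. These intervals rest on the same counts that called the genes, so they are not separate support for the calls. The number that counting error alone would give among the 263 genes was not worked out. Intervals of single genes below have the same limit.

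The genes furthest towards U2OS by the centred ratio had no interior hotspot at all in Saos-2. Their order against genes with 1 Saos-2 hotspot rests on the 0.5 added to each count, since a count of 0 gives only a bound. SDK1 (chr7:3301252-4269000), which encodes a synaptic adhesion protein of the immunoglobulin family, had 0 hotspots (Saos-2) and 19 (U2OS). Taking 3 hotspots as the upper limit that a count of 0 allows, the U2OS count of SDK1 was 6.33 times this limit. CSMD1 (chr8:2935361-4994914) is a large membrane protein gene with complement control domains. DPP10 (chr2:114442641-115845780) encodes an accessory subunit of potassium channels. Both genes had 0 in Saos-2 and 12 in U2OS, 4.0 times the limit of 3. DGKB, a diacylglycerol kinase gene, and RGS7, a regulator of G protein signalling, had 0 and 10 each, 3.33 times the limit of 3. GRM7, a metabotropic glutamate receptor gene, HPSE2, a heparanase homologue, and THSD7B had 0 and 8 each, 2.67 times the limit of 3. These ratios treat the U2OS count as exact, are not centred on the ratio of the lists, and belong to genes chosen as extremes. They are thus not lower bounds of the fold difference. In these 8 genes the U2OS hotspots stood in interiors of at least 562.5 kb that held none in Saos-2. The other direction had a single gene, ADARB2, a brain relative of the RNA-editing enzymes, with 1 hotspot in Saos-2 and 0 in U2OS.

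The U2OS hotspots in genes nearly empty in Saos-2 were of ordinary strength. In the 48 genes with 0 or 1 Saos-2 hotspots, there were 26 Saos-2 and 356 U2OS hotspots. The U2OS hotspots in these genes had a median −log10 value of 4.19 against 4.47 for its other hotspots inside long genes, and 19.4% against 20.6% reached 10. The highest was 40.1, in SDK1. Of the 26 hotspots of Saos-2 in these genes, 18 (69.2%) were overlapped by a U2OS hotspot. Examples were CTNNA3, an alpha-catenin gene of cell junctions, with 1 and 24 hotspots (ratio 24.0, 95% interval 3.91 to 987) and PCDH15, a protocadherin gene of hair cells, with 1 and 18 (ratio 18.0, 2.84 to 750).

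The 13 genes in the other direction were denser in Saos-2, and the 6 furthest of them are named here. CAMTA1 (chr1:6785454-7769706), a calmodulin-binding transcription activator gene, had 41 hotspots in Saos-2, the most of any long gene there, and 20 in U2OS, a centred log2 ratio of −1.32. The exact interval of its U2OS share, 32.8% (21.3 to 46.0), lay wholly below the share in the lists. DOCK1, an activator of the small GTPase Rac, had 10 and 4 (−1.53), ENOX1 14 and 6 (−1.46), and FARS2, the mitochondrial phenylalanyl-tRNA synthetase gene, 15 and 7 (−1.35). AKAP6, an anchor of protein kinase A, had 19 and 9 (−1.34), and CDKAL1, a tRNA-modifying enzyme gene, 24 and 12 (−1.28). FARS2 was no longer past the limit when covered bases were counted (−0.80), and CDKAL1 was not when ratios were centred on the same chromosome (−0.93). Neither passed it in the top 50% of each list (−0.75 and −0.97). Of the 13 genes, 6 lay on chromosome 6, among 18 long genes with at least 8 hotspots there, of which 3 were higher in U2OS. The long genes of chromosome 6 together held 171 Saos-2 and 179 U2OS hotspots, a centred log2 ratio of −0.24.

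The long genes with the most hotspots over both lines were mostly called in neither direction. TENM2 and TENM3, which encode teneurins, transmembrane proteins of cell adhesion, had 38 and 35 hotspots in Saos-2, against 36 and 32 in U2OS. LRMDA, a gene linked to melanocyte differentiation, had 35 and 36, NRXN3, a presynaptic neurexin gene, 27 and 34, and AUTS2, a neurodevelopmental gene, 34 and 26. RAD51B, a recombination repair gene, had 24 and 39. Sites were shared to unlike degrees: of the 38 Saos-2 hotspots in TENM2 24 were overlapped, and of the 34 in AUTS2 12. Over all Saos-2 hotspots inside long genes the share was 52.3%, so TENM2 lay above it and AUTS2 below. GPHN, which encodes the receptor scaffold gephyrin, had the most in U2OS, 44 against 16 in Saos-2 (centred log2 ratio 1.13), and 15 of its 16 Saos-2 hotspots were overlapped. The GPHN span holds other protein-coding genes, and both counts include hotspots at the ends of these.

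The 4 longest genes held few Saos-2 hotspots for their length, while their U2OS counts ran from 13 in PTPRD to 41 in RBFOX1. RBFOX1 (chr16:5239721-7713340, 2474 kb), a neuronal splicing factor gene, had 5 hotspots (Saos-2) and 41 (U2OS), a centred log2 ratio of 2.61 and a ratio of 8.2 (95% interval 3.24 to 26.6). A single site of RBFOX1 was shared. CNTNAP2, a neurexin-family gene, had 7 and 16, and all 7 Saos-2 hotspots were overlapped. Its centred log2 ratio of 0.83 passed the limit with equal lists (1.14) and in the top 50% of each list (1.28). PTPRD, a receptor phosphatase gene, had 10 and 13, with 2 shared. DLG2, a postsynaptic scaffold gene, had 10 and 26 (1.03), with 2 shared, and fell below the limit with ratios centred on the same chromosome (0.88), with equal lists (0.97), with a margin of 50 kb (0.98) or with 1 hotspot added to each count (0.99).

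**Figure D3:**
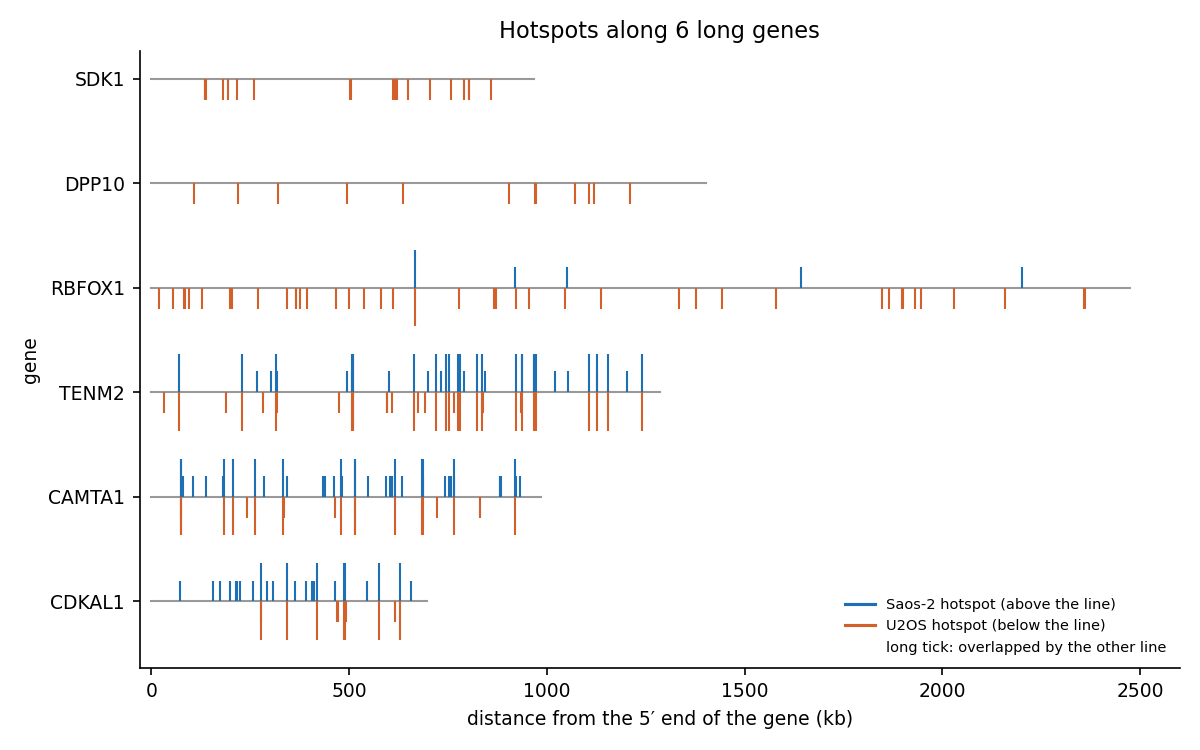
Position of each hotspot along 6 long genes, as distance from the 5′ end in kb (horizontal axis), with Saos-2 above and U2OS below each gene line and long ticks for hotspots overlapped by the other line. SDK1 and DPP10 carry U2OS ticks alone (19 and 12), RBFOX1 has 5 above and 41 below, TENM2 is even at 38 and 36, and CAMTA1 and CDKAL1 are denser above.

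Grouped by function, the median ratio lay further towards U2OS in genes of neural adhesion, ion channels and matrix than in genes of transcription. The groups were lists of genes chosen with earlier results of these data known, and their counts are descriptions. Of 39 long genes of neural cell adhesion and axon guidance, 33 had at least 8 hotspots, 13 were higher in U2OS and 0 higher in Saos-2, against 69 and 13 of all 263, and the median densities were 3.91 per Mb in Saos-2 and 11.7 in U2OS. Their median centred log2 ratio was 0.74, against 0.25 over all 263 long genes. Besides SDK1, CSMD1 and PCDH15, they included the cell adhesion gene OPCML with 1 and 20 hotspots, PTPRN2 with 3 and 19 and the axon guidance receptor gene ROBO1 with 4 and 12. Of 14 ion channel and neurotransmitter receptor genes with at least 8 hotspots, 4 were higher in U2OS and 0 higher in Saos-2 (median 0.78), a share near the 26.2% over all long genes. They included DPP10, GRM7 and the calcium channel subunit gene CACNA2D3 with 6 and 19. Of 11 matrix, glypican and muscle membrane genes, 4 were higher in U2OS and 0 higher in Saos-2 (median 0.97), beside 26.2% and 4.94% over all long genes. They were HPSE2, EYS, a photoreceptor matrix gene, with 3 and 17, the laminin gene LAMA2 with 3 and 11, and FSTL5 with 3 and 9.

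Genes of signalling and transcription had higher median densities than the long genes as a whole, which had 8.76 per Mb in Saos-2 and 14.98 in U2OS. The 27 long genes of signalling and scaffolds had median densities of 13.7 per Mb in Saos-2 and 16.9 in U2OS. Of the 26 with at least 8 hotspots, 5 were higher in U2OS and 1 higher in Saos-2 (median 0.18), beside 26.2% and 4.94% over all long genes. The 5 were the receptor tyrosine kinase gene ALK with 5 and 24 hotspots, the neuregulin genes NRG1 with 6 and 16 and NRG3 with 1 and 10, the scaffold gene MAGI1 with 5 and 14, and DLG2, and the 1 was DOCK1. The 20 genes of transcription, chromatin and RNA binding had 19.4 and 20.4 per Mb. Of 19 with at least 8 hotspots, 3 were higher in U2OS and 1, CAMTA1, in Saos-2 (median −0.20). The 3 were the genes of the RNA-binding proteins RBFOX1, RBFOX3 with 5 and 14, and CELF2 with 1 and 16, while RBMS3, another RNA-binding protein gene, had 20 and 15 and was called in neither direction. Of 14 common fragile site genes, 5 were higher in U2OS, among them DAB1 with 10 and 26, DLG2, CTNNA3 and LRP1B with 4 and 16, and 1 was higher in Saos-2 (median 0.45), beside 26.2% and 4.94% over all long genes. FHIT had 13 and 22, WWOX 15 and 11 and MACROD2 25 and 28, all called in neither direction.

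The stretches around the differing genes leaned the same way. In the 1 Mb on each side of the 69 genes higher in U2OS, the median centred log2 ratio was 0.50 and lay above 0 for 54 of the 69. Around the 13 genes higher in Saos-2 it was −0.60 and above 0 for 0 of 13, and around the 181 other genes it was 0.08 and above 0 for 100. The genes were chosen by their own ratios, so the size of the ratios around them is not compared with theirs. The 69 genes were spread over 17 chromosomes, with 7 of 13 long genes with at least 8 hotspots on chromosome 8 among them. The part of the surroundings in the counts of single genes was not tested. Centring each gene on the rest of its chromosome left 67 genes called towards U2OS and 9 towards Saos-2.

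Hotspots at the ends of long genes divided the genes further. A hotspot within 1 kb of an end was found for 103 long genes in Saos-2 (34.0%) and for 156 in U2OS (51.5%), against 48.6% and 54.1% of all autosomal protein-coding genes. Saos-2 thus fell short of its genome-wide share at long genes, while U2OS was near its own. In the 92 genes with an end hotspot in both lines, the median density inside was 13.7 per Mb in Saos-2 and 17.0 in U2OS. In the 64 genes with an end hotspot in U2OS alone it was 6.5 and 12.7, and in the 136 genes with none it was 7.8 and 14.5. The interior density thus varied less between these classes in U2OS than in Saos-2. Of the 22 genes without an interior hotspot in Saos-2, 8 had an end hotspot in U2OS alone, 13 in neither line, and 1 in both lines. Genes higher in U2OS made up 18 of 53 tested genes with an end hotspot in U2OS alone, 33 of 115 with none, 18 of 85 with both and 0 of 10 with Saos-2 alone.

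**Figure D4:**
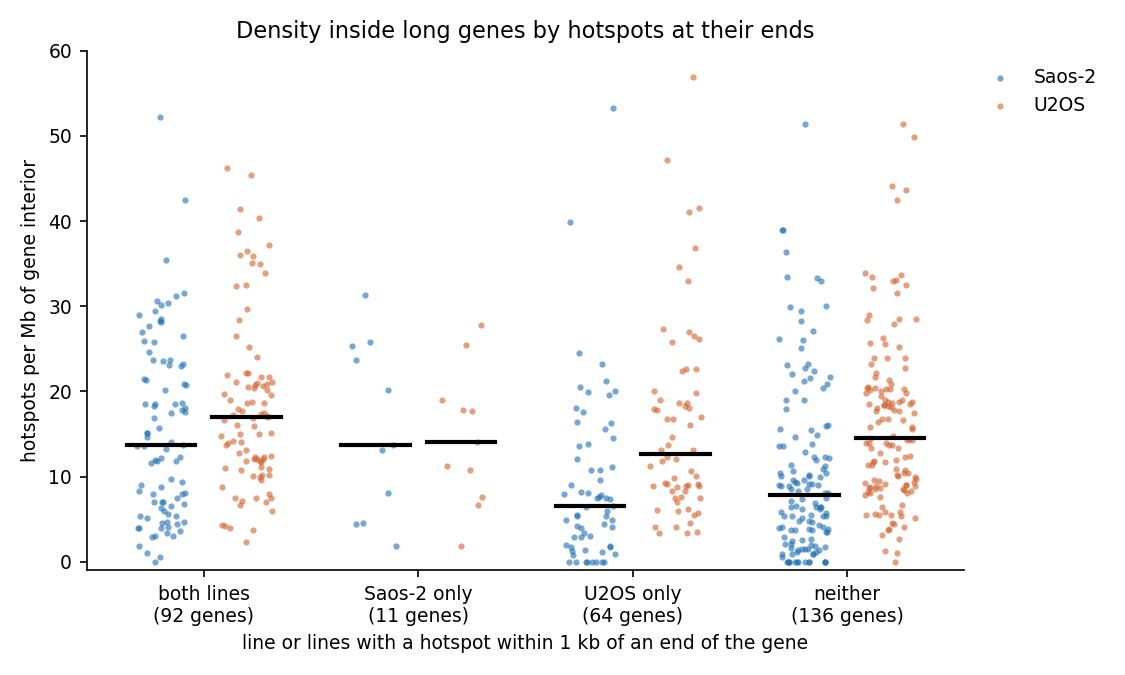
Hotspots per Mb of gene interior (vertical axis) for each long gene, 1 point per gene and line, with genes split by which lines had a hotspot within 1 kb of a gene end and bars at the medians. The Saos-2 medians are 13.7 where both lines had an end hotspot and 7.8 where neither had, and the U2OS medians are 17.0 and 14.5.

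Most inner transcription starts of long genes lay outside hotspots in both lines. This comparison and the genes named in it were chosen after values had been seen. RefSeq start windows more than 10 kb inside a long gene and belonging to it numbered 348, in 148 genes, and some windows overlap and share a hotspot. A hotspot covered 46 of them in Saos-2 (13.2%), against 31.1% of all autosomal windows, and 67 in U2OS (19.3%), against 34.5%. Both lines covered 33 (9.48%), Saos-2 alone 13 (3.74%), U2OS alone 34 (9.77%), and neither 268 (77.0%). Over all autosomal windows these shares were 27.5%, 3.61%, 7.03% and 61.9% in the same order. The share covered in Saos-2 alone was thus near that of all windows, and the share in U2OS alone was somewhat above it. The covered inner windows were richer in CpG dinucleotides, with a median of 19 per window where both lines covered it and 5 where neither did. Over all autosomal windows these medians were 26 and 5, so the contrast is not particular to inner starts. The GC box letters occurred in 16 of the 33 windows covered in both lines, 12 of the 34 in U2OS alone, 4 of the 13 in Saos-2 alone and 65 of the 268 in neither. The AP-1 letters occurred in 7, 2, 3 and 28 windows in the same order, beside 7.67% of all autosomal windows. The TATA box and ETS letters each occurred in 2 of the 34 windows covered in U2OS alone as well. The low count there was thus not particular to AP-1.

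RARB showed a different inner start in each line. In Saos-2 the hotspot chr3:25428037-25428244 (−log10 value 3.18) lay at the start at position 25428263 and held the retinoic acid direct repeat at chr3:25428211-25428226, shown in capitals above. No U2OS hotspot covered that window. In U2OS the hotspot chr3:25458170-25458345 (−log10 value 2.78) lay at a start at position 25458310, where Saos-2 had none, in a sequence with a GC content of 29.6%. Both values are low within their lists, and the whole gene held 15 Saos-2 and 8 U2OS hotspots. CAMTA1 had 1 inner start covered in both lines, with −log10 values of 3.88 and 6.43, and 2 of the 3 GC boxes in its printed sequence lay inside the hotspots of both lines. ESRRG had no hotspot in Saos-2 and 7 in U2OS, and its printed start was covered in U2OS with a value of 6.84. Other inner starts covered in both lines were those of TENM3 at position 182449016 (14.1 and 10.0) and of NRXN3 at position 79279380 (6.42 and 21.0). None of the 5 inner start windows of RBFOX1 was covered in either line.

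Some hotspots inside long genes lay at other genes nested there. In Saos-2 134 (5.09%) and in U2OS 191 (4.89%) lay within 1 kb of an end of another annotated gene, against 26.6% and 25.0% of all autosomal hotspots, a comparison with no reading of its own, since the rule leaves out the ends of the long genes themselves. They were overlapped by the other line in 59.7% of cases in Saos-2 (51.2 to 67.6) and 41.4% in U2OS (34.6 to 48.4), against 51.9% (49.9 to 53.8) and 34.6% (33.1 to 36.2) of the rest, differences within overlapping intervals. In U2OS the strongest lay at DLGAP1-AS6, a long non-coding RNA gene inside DLGAP1 (6.65 in Saos-2 and 58.7 in U2OS). A hotspot at ATP6V1D, a subunit gene of the vacuolar proton pump, and its neighbour EIF2S1, a translation initiation factor gene, reached 15.02 and 56.1 inside GPHN. The ETS matches in the printed ATP6V1D sequence lay inside the hotspots of both lines. A pseudogene inside LRRC4C, LOC100419712, had values of 29.3 and 50.6, and FLRT3, an adhesion protein gene inside MACROD2, 22.6 and 49.5. These sites were chosen by their highest value in either list.

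The most significant hotspots inside long genes lay far from the ends of the long genes that held them. In Saos-2 they were in EXOC6B, an exocyst gene (chr2:72367716-72368206, −log10 value 45.1 and 31.2 in the U2OS hotspot over it), in TENM3 (chr4:182307641-182308267, 45.0 and 33.3) and in ENOX1 (chr13:43405414-43405817, 44.3 and 5.45). In U2OS they were in GPHN (chr14:67221284-67222202, 62.5 and 7.13 in Saos-2), in ELMO1, a gene of cell engulfment and migration (chr7:37031680-37032353, 59.6 and 37.2), and in MAGI2, a synaptic scaffold gene (chr7:78702615-78703175, 59.2 and 13.2). All 6 were found in both lines, at distances of 178.8 to 685.6 kb from the nearer end of the long gene. The GPHN span also holds other protein-coding genes, and distances to their ends are not given. The strongest Saos-2 hotspots without any overlap in U2OS were in NEBL, a gene of the muscle Z-disc (29.9), and FARS2 (27.0). The strongest U2OS hotspots without overlap were in MACROD2 (44.5), SDK1 (40.1) and RBFOX1 (38.1). For the SDK1 site, chr7:3922218-3922700, the nearest Saos-2 hotspot was 361.6 kb away.

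Hotspots were spread along long genes with a modest excess towards the 3′ end in both lines. Over the 251 long genes with a strand in the start table, the 10% of the interior nearest the 5′ end held 8.10% of the Saos-2 hotspots (7.05 to 9.30) and 8.78% of those of U2OS (7.86 to 9.79). The 10% nearest the 3′ end held 13.1% (11.8 to 14.5) and 12.3% (11.2 to 13.4). Neighbouring hotspots of a gene were a median of 30.8 kb apart in Saos-2 and 30.4 kb in U2OS, although Saos-2 had fewer hotspots. A gene with 0 or 1 hotspot gives no gap. In Saos-2 22 genes had 0 and 26 had 1, against 1 and 3 in U2OS. The gaps thus do not compare spacing over all long genes. Gaps under 1 kb made up 10.6% and 9.54%, and gaps over 100 kb 16.8% and 16.2%. The longest stretches without a hotspot of either line were 781.4 kb in CSMD1, 697.2 kb in DPP6, a potassium channel subunit gene, 671.6 kb in CNTNAP2 and 664.3 kb in DSCAM, a neural adhesion gene, where it took up 81.4% of the interior.

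**Figure D5:**
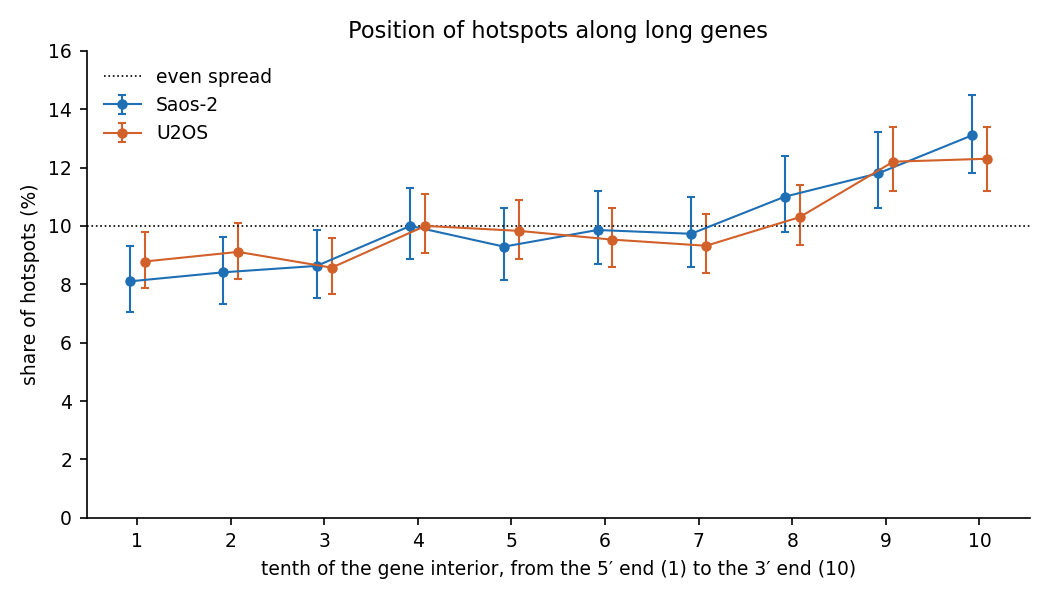
Share of hotspots (vertical axis, %) in each 10% of the gene interior from the 5′ end to the 3′ end, for Saos-2 and U2OS with Wilson 95% intervals, over 251 long genes, with a dotted line at an even spread. Both lines run from below the dotted line at the 5′ end (8.10% and 8.78%) to above it at the 3′ end (13.1% and 12.3%).

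The genes nearest the limit of 500 kb varied in their counts on both sides of it. Just inside it, PPP2R2B (500.8 kb) had 3 (Saos-2) and 7 (U2OS) hotspots, PPFIA2 5 and 6, SPOCK3 0 and 4, CCDC178 2 and 2 and ERC1 8 and 11. Just outside it, DIAPH3 (498.3 kb) had 3 and 0, CPQ 9 and 5, ITPR2 5 and 6, CACNA2D1 4 and 9 and DST 23 and 25. Some long genes overlap, such as IQCJ-SCHIP1 and SCHIP1, and 22 hotspots in Saos-2 and 20 in U2OS lay in an overlap and were counted in both genes.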

How the data were processed

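DNase-seq of Saos-2 and U2OS was analysed from 1 deposited list of hotspots per line. Reads were processed with Trimmomatic 0.38 and BWA 0.7.15 on hg38, per the submitters' processing notes. The hotspot caller, read filters and duplicate handling are not given in the sources used here. Each deposited hotspot carries a −log10 value, from 1.30 to a cap of 100, read here as the authors' significance because its floor is the −log10 of a false discovery rate of 0.05; it served to describe and rank hotspots within a list, and its comparison over paired sites depends on depth. Read depth is unknown.

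Gene spans came from a RefSeq table on GRCh38.p14, and strand and start windows from RefSeq for the 251 of 303 long genes that matched. Counting, overlap (at least 1 bp) and intervals used Python 3.11.15, pandas 2.3.3, NumPy 2.4.6 and SciPy 1.17.1, and were tested on simulated data. Densities are hotspots per Mb of interior, beyond 10 kb from both ends. The members and gene lists were chosen with earlier results of these data known. Genes named were the 8 with most hotspots, the 6 per direction with the largest ratio (ties kept), the 4 longest, and up to 3 per direction with hotspots in 1 line alone. Sites named were the 3 most significant per line, with and without overlap, and 4 nested genes. Some items these rules select are not reported here. Members of the gene lists, genes at the length limit and those with the longest empty stretches were examples, and the inner starts were chosen after their values were seen. Alternatives changed length, margin, overlap, list size, centring, added count, minimum count, merging and the unit counted.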

Additional observations from a re-analysis of the deposited data

How the results depend on the processing

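No paired analysis was possible because each line was represented by 1 library, and no replicate could be left out. The density inside long genes relative to the autosomes was 0.617 in Saos-2 and 0.741 in U2OS. It was 0.570 and 0.698 for covered bases, 0.775 and 0.821 for genes of at least 300 kb, 0.446 and 0.618 for genes of at least 1000 kb, and 0.573 and 0.712 in the top 50% of each list. The deficit was larger in Saos-2 under each of these. The share overlapped, 52.3% in Saos-2 and 34.9% in U2OS, became 47.4% and 39.3% with the U2OS list cut to the length of the Saos-2 list, 49.1% and 32.2% in the top 50%, and 37.9% and 25.6% when at least 50% of both hotspots had to overlap. In U2OS it was 38.9% for genes of at least 300 kb and 30.6% for genes of at least 1000 kb. The 69 genes higher in U2OS became 111 at 300 kb, 23 at 1000 kb and 41 in the top 50%. The 13 higher in Saos-2 became 62, 1 and 18 in the same order, and 21 for covered bases. These length settings test other numbers of genes, 579 and 62 in place of 263, and the top 50% tests 170. Calls towards U2OS made up 19.2% of tested genes at 300 kb and 37.1% at 1000 kb, in place of 26.2%. Calls towards Saos-2 made up 10.7% and 1.61%, in place of 4.94%. Over all 1354 genes these shares were 12.3% and 12.9%. The median centred log2 ratio was 0.0002 at 300 kb and 0.69 at 1000 kb, in place of 0.25, against −0.21 over all 1354. At 300 kb the median thus showed no lean towards U2OS beyond the ratio of the lists. With equal lists the counts of called genes were 63 and 17 in the same order, and 1 long gene was again empty in U2OS. In the top 50% the empty genes numbered 53 and 7. The settings for gene ends and inner starts were added after seeing the data. In the top 50%, long genes with an end hotspot numbered 64 in Saos-2 and 91 in U2OS (103 and 156 in the full lists), and covered inner starts 20 and 31 (46 and 67). With equal lists, U2OS had 135 such genes and 50 such starts. Of the named genes, DOCK1 and LRMDA moved beyond their counting intervals in the top 50%. DOCK1 had 5 Saos-2 and 0 U2OS hotspots there, under the minimum of 8, and its ratio is not given. LRMDA had a centred log2 ratio of 0.54, and the cause was not tested. No named gene past the limit changed direction under the alternatives run.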
